A study of Mus musculus with 6 samples.

Results

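NOD-like receptors and the inflammasome machinery were examined in peripheral blood (PB) neutrophils as a set of 10 named genes, chosen by symbol and all present among the 29097 genes of the expression table. They comprise 5 receptors (*Nlrp3*, *Nlrc4*, *Nlrp12*, *Nod1* and *Nod2*), the kinase *Ripk2*, the adaptor *Pycard*, the caspases *Casp1* and *Casp4*, and the pore-forming protein *Gsdmd*. Each of the 10 passed the filter on low expression, a mean FPKM (fragments scaled to gene length and library total) of no less than 1 over the 6 libraries, which 10440 genes passed.

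The libraries came from male C57BL/6 mice, 8 weeks old, whose second molars were tied with silk ligatures for 14 d to induce periodontitis (LIP, labelled Lig) or which stayed unligated for the same 14 d (Ctrl). There were 3 Smart-seq2 libraries per group, each made from the CD45+CD11b+Ly6G+ neutrophils of 5 pooled mice, so that differences between animals within a pool are not seen. Smart-seq2 amplifies full-length cDNA by PCR and attaches no molecular identifiers, and reads are therefore not independent molecules. Values after ± are SDs over the 3 libraries of a group.

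NOD-like receptors are cytosolic proteins that recognise microbial products or cell damage. NLRP3 and NLRC4 assemble inflammasomes that activate caspase-1. The adaptor ASC, encoded by *Pycard*, brings caspase-1 to NLRP3. Active caspase-1 cuts pro-IL-1β, pro-IL-18 and gasdermin D, whose fragment forms pores in the plasma membrane. Murine caspase-4, also known as caspase-11, binds cytosolic LPS and cuts gasdermin D without a receptor, whereas NOD1 and NOD2 sense fragments of bacterial peptidoglycan and signal through the kinase RIPK2 to NF-κB. In neutrophils, these pathways are known for IL-1β release and for a part in the formation of neutrophil extracellular traps.

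Total counts per library ranged from 52186555 to 57262379. The composition of the libraries differed between groups. Haemoglobin genes took 14.6% to 15.0% of the counts in Ctrl and 1.55% to 1.61% in LIP, and a list of 15 mature neutrophil genes took 1.63% to 1.77% and 5.02% to 5.34%. The sorting marker *Ly6g* was detected in each library, at 16.7 to 18.1 CPM (counts scaled to a common library size) in Ctrl and 43.0 to 54.5 in LIP. In such bulk libraries, fewer cells of a type and less RNA per cell cannot be told apart.

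Among the 10 genes, 6 rose in LIP and passed an adjusted p of 0.05 (edgeR's quasi-likelihood test, TMM normalization, Benjamini-Hochberg adjustment over all genes) and 0 fell, whereas with libraries scaled on the mature neutrophil list 0 were higher and 7 lower. Among all genes tested, 26.5% were higher and 27.2% lower with TMM, and 0.364% and 90% on the mature neutrophil scale. The 6 were *Nlrp3*, *Nlrp12*, *Nod2*, *Casp1*, *Casp4* and *Gsdmd*, and the median log2 fold change of the 10 genes was 0.58, beside -0.09 for all genes tested. The CPM of the 3 LIP libraries lay above those of the 3 Ctrl libraries for 7 of the 10, the 6 named and *Nod1*, which was so for 30.3% of all genes tested, and they lay below for 0 of the 10, against 33.1% of all genes. On the FPKM scale, which follows library totals, *Nlrp3*, *Nlrp12*, *Nod2* and *Casp4* lay above in LIP (21.6% of all genes) and *Nlrc4* lay below (44.4%). At an unadjusted p under 0.05, 59.6% of all genes differed in either direction, so a difference between groups was common in these libraries.

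**Figure D1:**
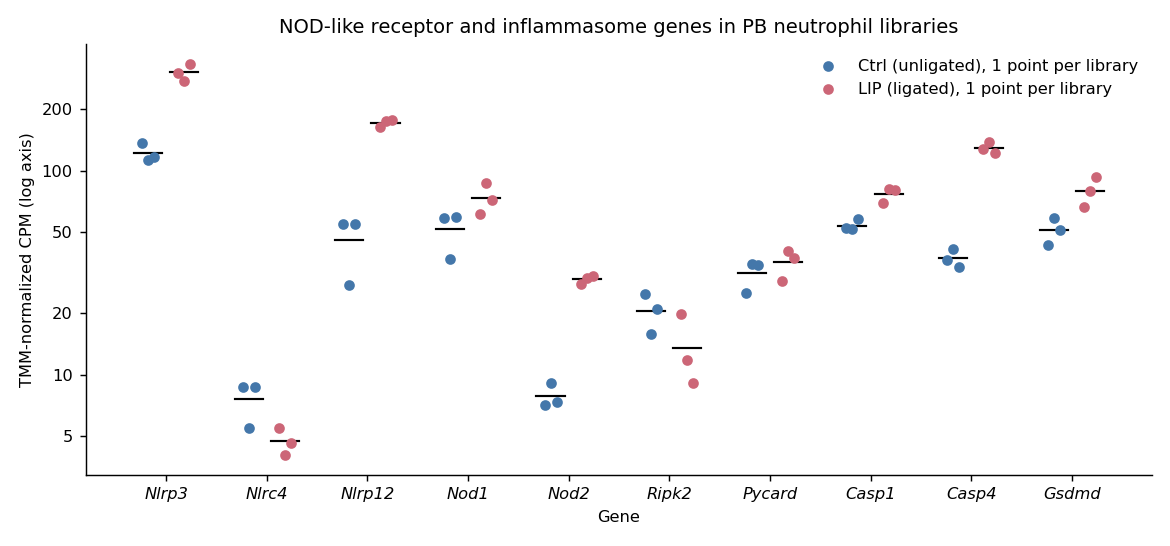
CPM after TMM normalization (log axis) of the 10 genes in each library, with a line at the mean of each group of 3. The LIP points of *Nlrp3*, *Nlrp12*, *Nod2* and *Casp4* sit far above the Ctrl points, those of *Nod1*, *Casp1* and *Gsdmd* sit just above them, and those of *Nlrc4*, *Ripk2* and *Pycard* overlap them. Under scaling on the mature neutrophil list, the sign of the change of *Nlrp3*, *Nod1*, *Pycard*, *Casp1*, *Casp4* and *Gsdmd* turns.

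Among the receptors, *Nlrp3* (ENSMUSG00000032691, chromosome 11 from 59541568 to 59566956, plus strand, GRCm38) was the most abundant per gene length. Its levels were 137, 113 and 117 CPM in the Ctrl libraries and 301, 276 and 335 in the LIP libraries. The lowest LIP library was at about 2 times the highest Ctrl library. The mean went from 122 ± 13.01 to 304 ± 29.6 CPM (n = 3), higher by 1.31 on the log2 scale (standard error 0.121, edgeR adjusted p = 9.12e-06).

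*Nlrp12* (ENSMUSG00000078817, chromosome 7 from 3218784 to 3249740, minus strand), a receptor described mainly as a restraint on NF-κB signalling in myeloid cells, was measured at 54.7, 27.5 and 54.7 CPM in Ctrl and at 164, 175 and 177 in LIP. The LIP libraries lay close together, and Ctrl replicate 2 lay well below the other two. The log2 fold change was 1.91 (standard error 0.230, edgeR adjusted p = 5.89e-05), and it was 1.67 without that library. The span of *Nlrp12* holds the microRNA genes *Mir292*, *Mir292b* and *Mir293*, each with a mean FPKM of 0.00 in these libraries.

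*Nod2* (ENSMUSG00000055994, chromosome 8 from 88647315 to 88688474, plus strand), the receptor for muramyl dipeptide, stood at 7.12, 9.08 and 7.38 CPM in Ctrl and at 27.8, 29.8 and 30.5 in LIP. It rose 3.74-fold, close to the 3.77-fold of *Nlrp12* (log2 standard error 0.209, edgeR adjusted p = 3.18e-05), from a much lower level. *Nod1* (ENSMUSG00000038058, chromosome 6 from 54923949 to 54972612, minus strand), which senses diaminopimelic acid-containing peptidoglycan, was at 58.5, 37.0 and 59.1 CPM in Ctrl and 61.6, 87.4 and 71.7 in LIP. The groups did not overlap in CPM, though they did in FPKM, and LIP replicate 1 lay close to Ctrl replicates 1 and 3. Its log2 fold change of 0.51 (standard error 0.200) missed the threshold (edgeR adjusted p = 0.0508), and it depended on the setting. It passed with median-of-ratios scaling (adjusted p = 0.0315) and with DESeq2 (adjusted p = 0.0117), whereas it was 0.19 with library totals (adjusted p = 0.447), 0.34 with a mean FPKM of at least 5 (adjusted p = 0.158) and 0.34 without Ctrl replicate 2 (adjusted p = 0.104).

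*Nlrc4* (ENSMUSG00000039193, chromosome 17 from 74425438 to 74459142, minus strand), the receptor activated by flagellin and type III secretion proteins through NAIP partners, had the fewest reads of the 10 genes. It was at 8.74, 5.48 and 8.72 CPM in Ctrl and at 5.51, 4.04 and 4.66 in LIP, and the groups overlapped through Ctrl replicate 2. Its log2 fold change of -0.69 (standard error 0.332) did not pass (edgeR adjusted p = 0.102), whereas with library totals in place of TMM a value of -1.01 did (adjusted p = 0.0240). The locus *Gm4708* lies in its span on the same strand with a mean FPKM of 0.85, and reads in the overlap are uncertain.

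The 250 bases before the RefSeq start (GRCm38.p6) were read for 8 of the 10 genes, all but *Ripk2* and *Gsdmd*, and searched on both strands for 7 short motifs. *Nlrp3*, *Nod1* and *Casp4* had 2 starts listed. For these the start nearest the 5′ end of the gene was used, and matches before the other start are not given. The motifs were the 10-base κB consensus, the interferon-response pair of GAAA repeats with 2 bases between them, the STAT palindrome TTCNNNGAA, the C/EBP-type TTGCNNAA, the Ets-type GAGGAA, the AP-1 site TGANTCA and the cAMP-response site TGACGTCA. Windows are shown for the receptors with the largest log2 fold changes that held a match, *Nlrp3* (chr11:59541319-59541568, plus strand) and *Nlrp12* (chr7:3249741-3249990, minus strand), 5′ to 3′ with matches in capitals.
Nlrp3: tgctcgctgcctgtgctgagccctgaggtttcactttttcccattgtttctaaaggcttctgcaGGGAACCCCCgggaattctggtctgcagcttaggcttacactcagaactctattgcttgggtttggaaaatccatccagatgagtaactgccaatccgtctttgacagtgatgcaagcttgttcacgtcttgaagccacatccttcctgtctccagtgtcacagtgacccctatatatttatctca
Nlrp12: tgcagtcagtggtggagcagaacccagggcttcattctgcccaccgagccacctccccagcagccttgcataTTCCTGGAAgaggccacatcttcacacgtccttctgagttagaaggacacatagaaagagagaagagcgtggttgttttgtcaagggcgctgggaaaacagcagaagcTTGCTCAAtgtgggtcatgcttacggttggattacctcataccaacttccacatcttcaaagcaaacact
In *Nlrp3* the capitals mark a κB match from base -186 to -177, and in *Nlrp12* they mark TTCNNNGAA from -178 to -170 and TTGCNNAA from -70 to -63, counted back from the start. Of all 32851 windows of this length, 7.25% held a κB match, 7.02% held TTCNNNGAA and 9.56% held TTGCNNAA. The windows of *Nod1* and *Nod2* held no match to any of the 7 motifs, and no window of the 8 held the GAAA pair, TGANTCA or TGACGTCA, which occurred in 2.98%, 6.75% and 1.55% of all windows. A match is a stretch of letters and does not show that a factor binds there.

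*Ripk2* (ENSMUSG00000041135, chromosome 4 from 16122733 to 16163647, minus strand), the kinase on which both NOD receptors depend, was measured at 24.8, 15.8 and 20.95 CPM in Ctrl and at 19.8, 11.9 and 9.09 in LIP. The groups overlapped, with LIP replicate 1 among the Ctrl values and the remaining LIP libraries below all of them. The log2 fold change was -0.60 (standard error 0.309, edgeR adjusted p = 0.126). Without LIP replicate 1 it was -0.97 and passed (edgeR adjusted p = 0.0141), without LIP replicate 3 it was -0.38 and did not (adjusted p = 0.327), and with library totals it was -0.92 and passed as well (adjusted p = 0.0280).

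*Pycard* (ENSMUSG00000030793, chromosome 7 from 127989708 to 127993867, minus strand), which encodes the adaptor ASC, was at 25.2, 35.0 and 34.5 CPM in Ctrl and 28.8, 40.4 and 37.4 in LIP. The ranges overlapped over most of their length. Its log2 fold change was 0.17 (standard error 0.198, edgeR adjusted p = 0.489), and it turned to -0.15 with library totals (adjusted p = 0.532).

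*Casp1* and *Casp4* are neighbours on chromosome 9, on the plus strand, with 1537 bases between them. *Casp1* (ENSMUSG00000025888, from 5298508 to 5307290) was at 52.3, 51.6 and 57.7 CPM in Ctrl and at 69.6, 81.0 and 80.5 in LIP. *Casp4* (ENSMUSG00000033538, from 5308828 to 5336783) was at 36.3, 41.3 and 33.9 CPM in Ctrl and at 127, 138 and 122 in LIP. Neither gene overlapped between groups in CPM, and the distance between groups was much wider for *Casp4*. In FPKM the groups overlapped for *Casp1*, with 18.9 in Ctrl replicate 3 and 18.4 in LIP replicate 1.
The log2 fold change of *Casp1* was 0.52 (standard error 0.127, edgeR adjusted p = 0.00609), and with library totals it was 0.20 and did not pass (adjusted p = 0.208). *Casp4* rose 3.48-fold (log2 standard error 0.129, edgeR adjusted p = 1.69e-06). A value as high as that of *Casp4* was reached by 3.2% of all genes tested.

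The windows before the starts of *Casp1* (chr9:5298267-5298516) and *Casp4* (chr9:5308599-5308848) are given because these adjacent genes differed in the size of their change. Both are on the plus strand and are written 5′ to 3′, with motif matches in capitals.
Casp1: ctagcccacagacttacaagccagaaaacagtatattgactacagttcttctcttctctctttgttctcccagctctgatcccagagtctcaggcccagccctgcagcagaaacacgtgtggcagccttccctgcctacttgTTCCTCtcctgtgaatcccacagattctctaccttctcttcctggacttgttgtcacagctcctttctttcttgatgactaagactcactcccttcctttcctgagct
Casp4: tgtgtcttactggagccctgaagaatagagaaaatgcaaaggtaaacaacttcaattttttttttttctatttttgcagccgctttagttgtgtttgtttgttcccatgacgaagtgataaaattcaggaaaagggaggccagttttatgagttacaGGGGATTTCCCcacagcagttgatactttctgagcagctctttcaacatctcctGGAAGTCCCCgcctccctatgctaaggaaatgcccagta
In *Casp4* the capitals mark κB matches in a run from -93 to -83, where 2 matches overlap, and from -39 to -30 on the opposite strand. The *Casp1* window held no κB match, and its capitals mark GAGGAA, read on the minus strand from -108 to -103, which 23.3% of all windows held. Of the 8 windows, *Nlrp3* and *Casp4* were those with a κB match, which 7.25% of all windows held. The windows of *Nlrp12* and *Nod2*, the genes with the largest log2 fold changes, held none. Whether the matches bear on the changes was not tested. The RefSeq starts used for *Casp1* and *Casp4* lie 9 and 21 bases inside the gene spans given above.

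*Gsdmd* (ENSMUSG00000022575, chromosome 15 from 75862327 to 75867408, plus strand), the substrate through which both caspases open the membrane, was at 43.2, 58.8 and 51.4 CPM in Ctrl and at 66.3, 79.2 and 92.7 in LIP. The groups did not overlap in CPM, though they did in FPKM, and the spread within each was wide. Its log2 fold change was 0.64 (standard error 0.165, edgeR adjusted p = 0.00809). With library totals it was 0.32 and did not pass (adjusted p = 0.119).

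**Figure D2:**
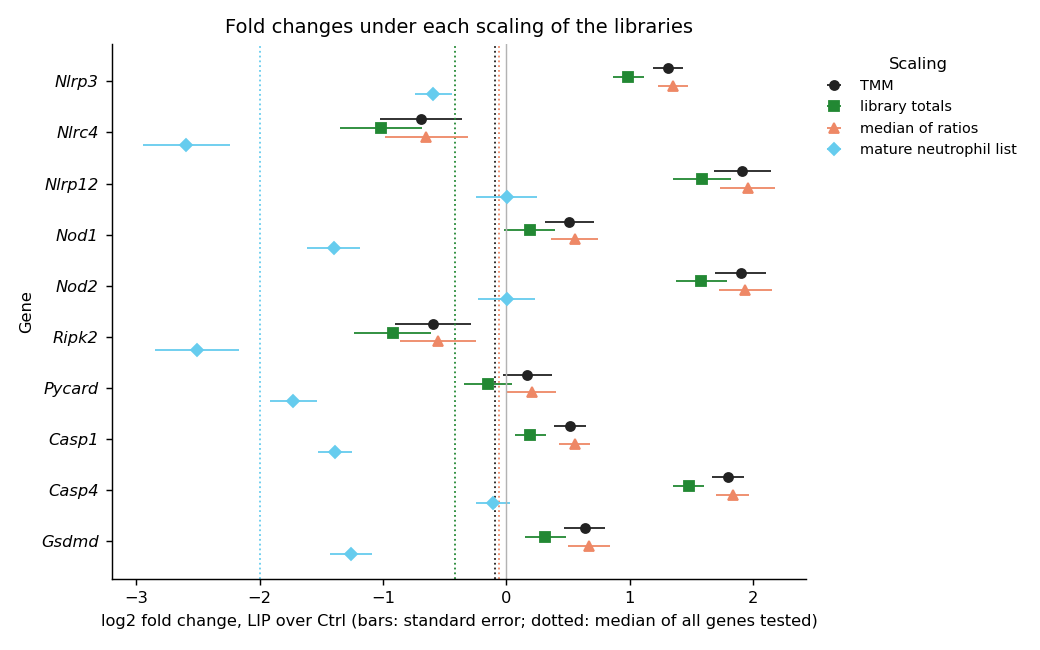
Log2 fold change of the 10 genes, LIP over Ctrl, with its standard error, under 4 scalings of the libraries, with a dotted line at the median of all genes tested under each. The scaling moves all genes together, from a median of -0.05 with median of ratios to -1.997 on the mature neutrophil list, and *Nlrc4* and *Ripk2* are the genes that lie to the left of the dotted line of their scaling.

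Because the libraries differed in composition, each change depends on what the libraries were scaled to. Across all genes, the median log2 change was -0.09 with TMM, -0.42 with library totals and -1.997 with scaling on the mature neutrophil list, whose own members rose by a median of 1.84 with TMM. Relative to the median of all genes, *Nlrp12*, *Nod2*, *Casp4* and *Nlrp3* stood higher by 2.01, 1.996, 1.89 and 1.41 with TMM, and by 1.404 (*Nlrp3*) to 2.001 (*Nod2*) on the mature neutrophil scale. Of all genes, 2766 were called higher and 2835 lower with TMM, 1919 and 4146 with library totals, and 38 and 9399 on the mature neutrophil scale. *Nlrc4* and *Ripk2* stood below the median of all genes in every setting in which they were tested. The distances were -0.78 to -0.22 for *Nlrc4* and -0.88 to -0.28 for *Ripk2*. Neither was called lower with TMM on all libraries, whereas *Ripk2* was called lower without LIP replicate 1. A change of scaling moves all genes nearly alike. The distance of a gene from the median is therefore almost fixed across scalings, and its stability there is no further support. Set against the mature neutrophil genes themselves, *Nlrp12*, *Nod2* and *Casp4* changed by 0.00, 0.00 and -0.11 (adjusted p = 0.991, 0.987 and 0.477), so that no difference from those genes was detected, and *Nlrp3* was lower by -0.59 (adjusted p = 0.00367).

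Levels of different genes were compared per gene length, on the FPKM scale and within a group. In Ctrl, *Nlrp3* led with 31.1 ± 3.83 FPKM, followed by *Gsdmd* with 22.1 ± 3.04 and *Casp1* with 17.7 ± 1.133 (n = 3). *Nod1* (10.5), *Casp4* (10.3), *Pycard* (8.56), *Ripk2* (7.53) and *Nlrp12* (6.25) came next, and *Nlrc4* (1.64) and *Nod2* (1.61) were lowest. Neighbours whose ranges overlapped, and which therefore did not differ beyond their spread, were *Nod1* and *Casp4*, *Pycard* and *Ripk2*, *Ripk2* and *Nlrp12*, and *Nlrc4* and *Nod2*. Genes further apart in rank overlapped as well. *Nod1* (7.40 to 12.1 FPKM) overlapped *Pycard* (6.97 to 9.36), *Ripk2* (5.68 to 9.26) and *Nlrp12* (3.70 to 7.60), and *Pycard* overlapped *Nlrp12*. The order of these genes in Ctrl was therefore not resolved.
In LIP, *Nlrp3* led again with 62.4 ± 6.13 FPKM, and *Casp4* followed with 29.0 ± 1.84 (n = 3). *Casp4* overlapped *Gsdmd* (27.8), and *Casp1* (20.5) overlapped *Nlrp12* (19.0). Then came *Nod1* (12.1), *Pycard* (7.79), *Nod2* (4.88), *Ripk2* (4.01) and *Nlrc4* (0.818), of which *Nod2* and *Ripk2* overlapped. By mean FPKM, *Casp4* thus went from rank 5 to rank 2 and *Nlrp12* from rank 8 to rank 5, while *Nlrc4* went from rank 9 to rank 10.

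**Figure D3:**
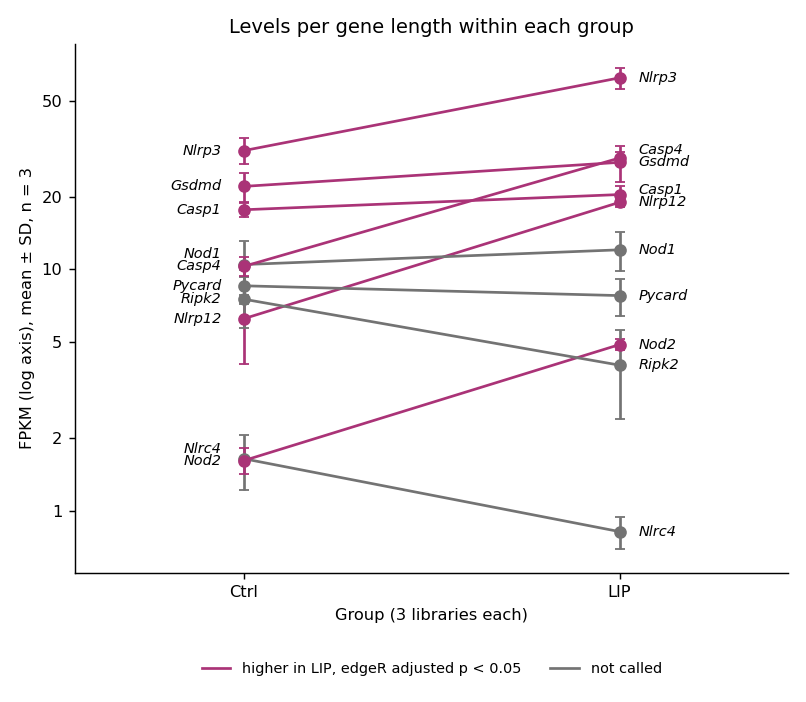
Mean FPKM (log axis) of the 10 genes in Ctrl and LIP, with the SD over 3 libraries, coloured by the edgeR call with TMM normalization. The lines of *Casp4* and *Casp1* cross, as do those of *Nod2* and *Ripk2*. FPKM are scaled to library totals, so a line's slope is lower than the TMM fold change, and the calls change under scaling on the mature neutrophil list, where 0 are higher.

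Ratios between genes of the same library do not depend on the scaling between libraries. They do still depend on the mix of cells in a library, which differed between groups, and its part in them was not tested. The pairs were chosen after the values had been seen and are given without a test. The FPKM of *Casp4* was 0.587, 0.677 and 0.496 times that of *Casp1* in the Ctrl libraries and 1.55, 1.44 and 1.29 times in the LIP libraries, so that *Casp1* was the higher caspase in each Ctrl library and *Casp4* in each LIP library. The ratio of *Gsdmd* to *Casp1* overlapped between groups, at 1.26 ± 0.220 in Ctrl and 1.36 ± 0.143 under LIP, as did that of *Pycard* to *Casp1*, at 0.485 ± 0.0817 and 0.379 ± 0.0356.
Within the NOD branch, the ratio of *Nod2* to *Nod1* was 0.123, 0.248 and 0.126 in Ctrl and 0.458, 0.345 and 0.431 in LIP. That of the kinase *Ripk2* to *Nod2* was 6.23, 3.09 and 5.06 in Ctrl and 1.27, 0.709 and 0.530 in LIP. The Ctrl and LIP libraries were apart for both ratios, and Ctrl replicate 2 was the Ctrl library nearest to LIP in both. *Nlrp3* per *Pycard* went from 3.76 ± 1.15 to 8.19 ± 1.72, and *Nlrc4* per *Nlrp3* from 0.0524 ± 0.0111 to 0.0131 ± 0.00198.

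**Figure D4:**
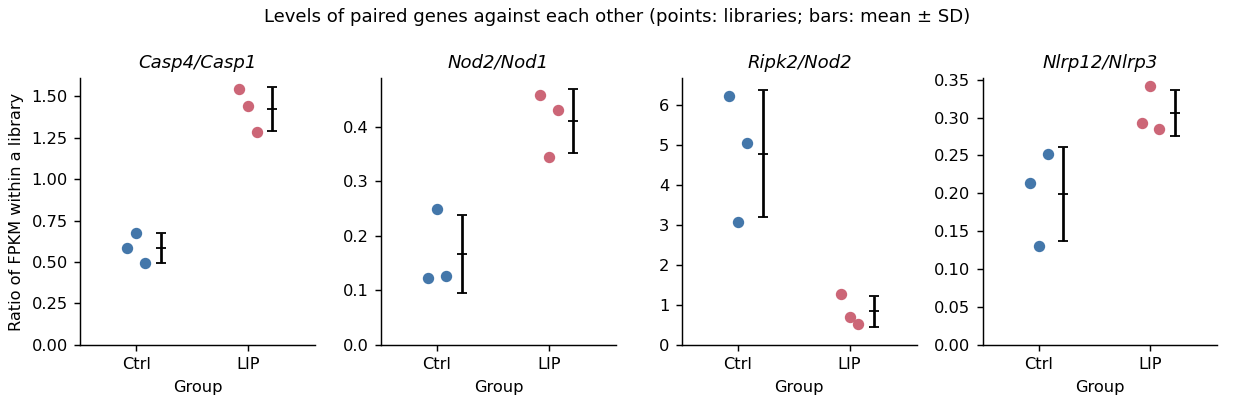
Ratio of the FPKM of paired genes within each library, with the mean and SD of 3 libraries beside the points (linear axes from 0). In each panel the LIP libraries lie apart from the Ctrl libraries, above them for *Casp4*/*Casp1*, *Nod2*/*Nod1* and *Nlrp12*/*Nlrp3* and below them for *Ripk2*/*Nod2*. The part of the cell mix of the libraries in these ratios was not tested.

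The pathway around these 10 genes was described with a list of 57 further genes, of which 54 were in the table and 41 passed the filter. Of the 41, 19 were higher in LIP and 7 lower (edgeR adjusted p under 0.05), with a median log2 fold change of 0.41, beside 26.5% and 27.2% of all genes. The numbers were 17 higher and 14 lower with library totals, beside 18.4% and 39.7% of all genes, and 0 higher and 31 lower with scaling on the mature neutrophil list, beside 0.364% and 90%. Both cytokines that caspase-1 cuts were tested. *Il1b* was measured at 3440.5 ± 275 CPM in Ctrl and rose to 12844 ± 714 with ligatures (fold 3.73, edgeR adjusted p = 5.92e-08), reads of its antisense partner *Il1bos* not being separable where strand was not used, whereas *Il18*, at 3.39 ± 0.860 and 5.42 ± 3.16 CPM, overlapped between groups (edgeR adjusted p = 0.238).

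Of the other sensors, 6 of 16 were tested, 3 higher and 1 lower. *Nlrx1*, a mitochondrial member of the family, went from 27.9 ± 4.21 to 129.7 ± 15.3 CPM, higher by 2.21 on the log2 scale (edgeR adjusted p = 1.41e-06). *Mefv*, which encodes the inflammasome sensor pyrin, rose by 1.79 (standard error 0.199, edgeR adjusted p = 3.49e-05). *Naip2*, which pairs with NLRC4 and was singled out once values were known, rose from 6.96 to 30.5 CPM, but the *Naip* genes are close copies and its reads are uncertain. *Aim2*, a sensor of cytosolic DNA, overlapped between groups (log2 fold change 0.74, edgeR adjusted p = 0.190).
*Ciita*, the NLR family regulator of MHC class II genes, fell by 2.22 on the log2 scale (edgeR adjusted p = 3.15e-06). B cells express it, and the 10 B cell markers were all lower in LIP, with a summed level of 3655 to 3921 FPKM in Ctrl and 534 to 593 in LIP. The part of B cell RNA in the fall of *Ciita* was not tested.

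Of 19 listed regulators and effectors, 15 were tested, 8 higher and 3 lower. *Gbp2*, a guanylate-binding protein, *Card9*, an adaptor of C-type lectin receptors, and *Trim30a*, described as a restraint on NLRP3, rose by 1.65, 1.64 and 1.58 on the log2 scale. *Gsdme*, the gasdermin cut by caspase-3 and likewise singled out later, went from 24.7 ± 2.58 to 107 ± 8.02 CPM. *Serpinb1a*, an inhibitor of neutrophil serine proteases that also restrains inflammatory caspases, fell from 154 ± 18.6 to 63.7 ± 7.19 CPM (log2 fold change -1.27, edgeR adjusted p = 2.74e-05).

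Of 20 genes of NOD1 and NOD2 signalling, 18 were tested, 7 higher and 3 lower, and their median log2 fold change was -0.11. *Slc15a3*, an endolysosomal peptide transporter that can carry NOD ligands, rose by 1.70 on the log2 scale, and its relative *Slc15a4* fell by 0.68 (edgeR adjusted p = 1.14e-05 and 0.00689). *Tnfaip3*, the NF-κB feedback inhibitor A20, rose by 1.36 (edgeR adjusted p = 0.000328). The subunits of the linear ubiquitin ligase that acts on RIPK2 complexes did not move alike, with *Rnf31* higher by 1.057, *Rbck1* lower by -0.34 (edgeR adjusted p = 0.0253) and *Sharpin* at -0.17 (adjusted p = 0.347). *Otulin*, which removes linear ubiquitin, fell by 0.83 (edgeR adjusted p = 0.000807). The call for *Rbck1* was lost without Ctrl replicate 3 (adjusted p = 0.0612), without LIP replicate 1 (0.0748) and without LIP replicate 3 (0.0933).

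**Figure D5:**
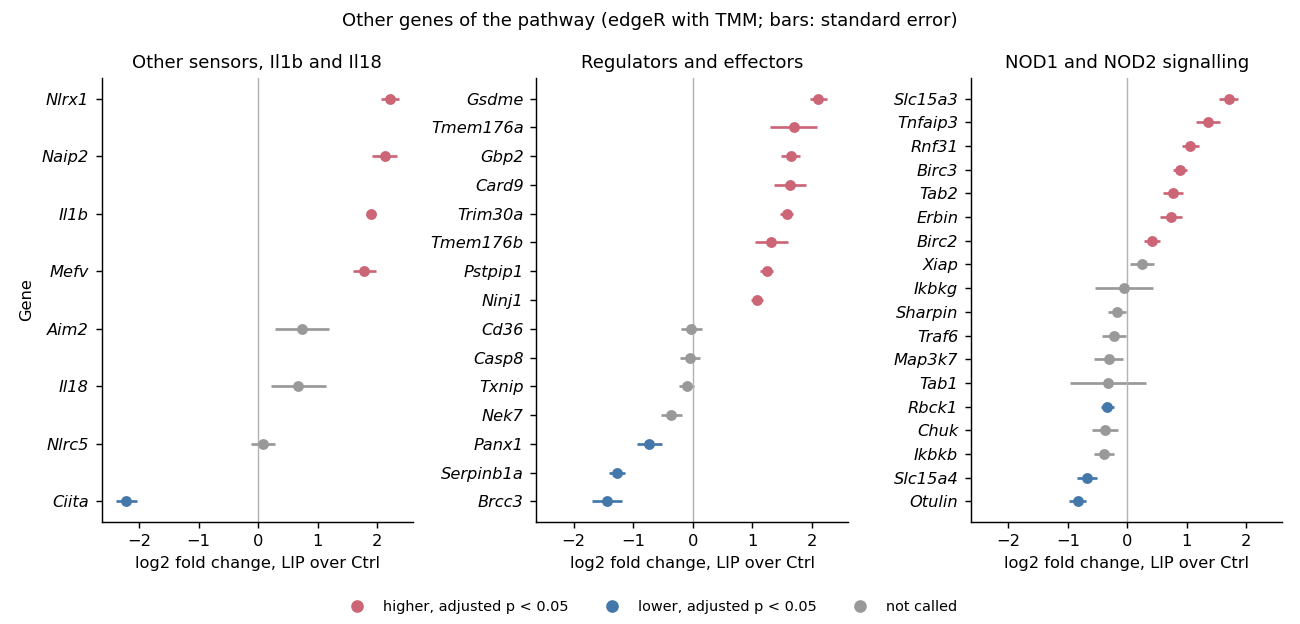
Log2 fold change with its standard error, LIP over Ctrl, of the 41 further pathway genes tested with edgeR and TMM normalization, coloured by call at an adjusted p under 0.05. Other sensors range from -2.22 (*Ciita*) to 2.21 (*Nlrx1*), and genes of NOD1 and NOD2 signalling cluster nearer to 0. Scaled on the mature neutrophil list, 0 of these genes are called higher.

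Markers of the cell types that a neutrophil sort can hold were measured in the same libraries, as the summed FPKM of all markers of a list in the table, and no marker listed in the table was at 0 in all 6. The 15 mature neutrophil genes were all higher in LIP, led in abundance by *S100a9*. Of 12 monocyte and macrophage markers, 8 were higher and 1 lower, and their summed level was 278 to 296 FPKM in Ctrl and 404 to 451 in LIP, with *Cd68* the most abundant. All 7 platelet markers were higher (816 to 1040 and 1711 to 2005 FPKM, most abundant *Ppbp*). The 10 T cell markers (273 to 299.9 and 40.4 to 54.3 FPKM, *Lck*) and the 8 erythroid markers tested (180732 to 186950 and 19500 to 20210 FPKM, *Hba-a1*) were all lower, as were the 10 B cell markers, led by *Ighm*. Their part in the changes of the 10 genes was not tested.
NK cell markers were at 249 to 296 FPKM in Ctrl and 249 to 279.9 in LIP (2 of 7 higher, *Gzma*). Dendritic cell markers were at 30.6 to 42.9 and 34.9 to 38.4 FPKM (1 of 2 tested higher, *Bst2*). Eosinophil and basophil markers were at 8.59 to 13.9 and 14.0 to 19.8 FPKM (1 of 5 tested higher, *Siglecf*), and immature neutrophil markers at 1818 to 2134 and 2485 to 2667 FPKM (4 of 8 tested higher, *Ngp*), although the mean log2(FPKM + 1) of the latter list was 4.26 in Ctrl and 4.14 under LIP. In mean log2(FPKM + 1), the monocyte list stood at 3.85 ± 0.0562 in Ctrl and at 4.31 ± 0.0495 under LIP, and permuting the libraries (exact, two-sided) gave p = 0.1, the smallest possible with 3 against 3, and 0.167 after adjustment over 10 lists.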

How the data were processed

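RNA of sorted PB neutrophils was sequenced in 6 Smart-seq2 libraries, 3 Ctrl and 3 LIP. Raw counts of reads and FPKM values for each gene were deposited by the authors, with GRCm38 coordinates. The submitters' processing notes name cutadapt 1.9 and FastQC; aligner, counting tool and use of strand are not given in the sources used here. Counts were tested with edgeR 4.0.16 (R 4.3.3, quasi-likelihood test, TMM), on the 10440 genes passing a mean FPKM of 1, and p-values were Benjamini-Hochberg adjusted. CPM are TMM-normalized. Standard errors were derived from the log2 fold change and the F statistic. Where a symbol had several rows, the most expressed row was kept. Chi-square per gene was 51.9 to 126 for libraries of the same group, beyond sampling noise. The methods state pooled mice per library, and p-values measure the spread between these pools. Counting intervals would cover counting error only. The scripts were tested on simulated data with equal numbers of genes raised and lowered and no shift in cell composition. That run does not test the calls under the composition difference of these libraries.

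The 10 genes, the pathway list and the marker lists were chosen with earlier results of these data known. Pathway genes named are *Il1b*, *Il18* and, per group, up to 3 highest and 3 lowest among those called with a mean FPKM of at least 5; marker genes named are the most abundant per list. *Naip2*, *Aim2*, *Gsdme* and *Sharpin* were added after values were seen. Alternatives were library totals, median-of-ratios and mature neutrophil scaling, haemoglobin genes left out, other filters, DESeq2 1.42.0, limma 3.58.1 with pseudocounts of 1 and 0.1, a replicate block, and each library left out. Windows before gene starts are RefSeq sequence; gene spans matched GENCODE M21 for 9 of the 10 genes, all but *Casp1*.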

Additional observations from a re-analysis of the deposited data

How the results depend on the processing

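Of 168 refits of the 10 genes, 138 kept direction and side of the threshold, 8 lost the call, 13 gained one and 9 turned sign. For the 19 further pathway genes named, the numbers were 297, 9, 4 and 9 of 319. Without the filter on low genes, with filterByExpr, with haemoglobin genes left out and under the replicate block, each of the 10 genes kept its call. With a mean FPKM of at least 5, *Nlrc4* and *Nod2* were not tested.

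The number of genes lower rose from 0 to 2 with library totals and in limma with either pseudocount, namely *Nlrc4* and *Ripk2*, and *Casp1* and *Gsdmd* lost their calls there. Of all genes tested, 39.7% were lower with library totals, and 40.9% and 39% in limma with pseudocounts of 1 and 0.1. *Pycard* turned to -0.15 with library totals, -0.12 in limma with a pseudocount of 1 and -0.14 with 0.1. Pathway genes lower numbered 14 with library totals, against 7.

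Scaling on the mature neutrophil list gave 0 of the 10 genes higher and 7 lower, and 0 pathway genes higher and 31 lower, since by construction it subtracts the rise of the reference genes from every gene. Under it *Nlrp3* was at -0.59, *Nod1* at -1.40, *Pycard* at -1.73, *Casp1* at -1.39, *Casp4* at -0.11 and *Gsdmd* at -1.26. Among pathway genes *Mefv* was at -0.10, *Trim30a* at -0.32, *Card9* at -0.27, *Gbp2* at -0.26, *Tnfaip3* at -0.56, *Slc15a3* at -0.21, *Rnf31* at -0.85, *Il18* at -1.22 and *Aim2* at -1.13.

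With each library left out in turn, 6 to 7 of the 10 genes were higher and 0 to 1 lower, and 18 to 19 pathway genes were higher and 6 to 10 lower. Of all genes tested, 23.2% to 25% were higher and 21.6% to 26.5% lower in these refits. *Nod1* passed without Ctrl replicate 1 (0.62) and without LIP replicate 1 (0.63). On log2(CPM + 1), the dendritic cell and NK cell list differences turned to -0.0790 and -0.0167. Elsewhere the cause was not tested.

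Under the replicate block, 6 of the 10 genes and 19 pathway genes were higher and 0 and 7 lower, as without it, beside 26.1% of all genes higher and 27% lower. Same-numbered libraries come from different mice, their deviations correlated by 0.0212, 0.0562 and 0.0364, and the numbers do not pair the libraries. Counts were low for *Nlrc4*, with 206 to 526 reads per library, and for *Nod2* in Ctrl, with 429 to 544, which limits the precision of both genes.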
